A study of Homo sapiens with 6 samples.

Results

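The splicing factor genes described here encode the SR proteins (symbols SRSF plus a number, with the related TRA2A and TRA2B), the heterogeneous nuclear ribonucleoproteins (symbols starting with HNRNP, with PTBP1 and PTBP3) and the factors that define the branch site and the 3′ splice site (SF3A and SF3B subunits, U2AF1 and U2AF2). They were chosen by symbol, with pseudogenes left out and with earlier results of these data known. They were 48 of the 16617 genes in the authors' deposited table: 13 SR and TRA2 genes, 24 hnRNP and PTBP genes and 11 SF3 and U2AF genes. The samples were T3M4 cells, an established human pancreatic ductal adenocarcinoma line, with 3 libraries from sgMETTL13 cells, whose genotype the labels give as METTL13 knockdown, and 3 libraries from sgControl cells, whose genotype they give as WT. METTL13 methylates the translation elongation factor eEF1A, and the RNA was profiled to accompany protein measurements of the same cells. Both groups carry a guide RNA and grew in the same medium; the sources used here do not say how the guide was delivered, or whether the cells are a pool or 1 clone.

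Introns are recognised in steps. U2AF2 binds the polypyrimidine tract and U2AF1 the AG at the intron's end, after which the SF3A and SF3B complexes anchor the U2 snRNP at the branch site. SR proteins mostly bind exonic enhancers and promote the use of an exon, whereas many hnRNPs bind silencers and oppose it, so that the balance between them shapes alternative splicing. Many of these genes control their own level through exons that send the transcript to nonsense-mediated decay. The measurements here are totals per gene, so such isoforms were not separated.

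SRSF6 and SRSF11 are the 2 genes of the family that passed the test. The 250 bases before their annotated starts, and before that of SF3A2, which had the smallest p among the family's genes with a higher level in sgMETTL13 cells, are shown so that the starts of these genes can be compared. The sequences run 5′ to 3′ on the gene's strand and are RefSeq's on GRCh38.p14. Capitals mark matches on either strand to 4 motifs that were searched for, and no motif contains another. The first is the E-box CACGTG, which reads the same on both strands. The next is the core of the TATA box, TATAAA. The third motif, known from sites of ETS family factors, is CCGGAAG. The last, known from sites of the factor NRF1, is GCATGCG. SRSF11 has 2 annotated starts, and the deposited values do not separate them.
SRSF6, chr20:43457646-43457895, plus strand: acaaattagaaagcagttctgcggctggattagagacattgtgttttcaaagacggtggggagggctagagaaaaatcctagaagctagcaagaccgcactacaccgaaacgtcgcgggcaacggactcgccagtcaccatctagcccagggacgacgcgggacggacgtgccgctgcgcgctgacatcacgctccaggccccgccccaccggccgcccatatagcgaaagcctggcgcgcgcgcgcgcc
SRSF11 upstream start, chr1:70205446-70205695, plus strand: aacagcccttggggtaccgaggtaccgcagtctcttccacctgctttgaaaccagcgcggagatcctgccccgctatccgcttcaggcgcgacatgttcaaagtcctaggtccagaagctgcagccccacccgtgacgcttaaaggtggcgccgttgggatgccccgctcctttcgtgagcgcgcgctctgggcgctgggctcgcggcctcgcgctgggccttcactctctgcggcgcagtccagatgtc
SRSF11 downstream start, chr1:70221130-70221379, plus strand: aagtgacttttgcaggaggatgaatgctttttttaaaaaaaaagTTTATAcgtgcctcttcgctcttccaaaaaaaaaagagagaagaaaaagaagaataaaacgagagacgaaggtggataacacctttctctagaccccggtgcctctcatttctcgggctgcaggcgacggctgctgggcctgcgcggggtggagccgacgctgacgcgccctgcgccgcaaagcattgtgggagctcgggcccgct
SF3A2, chr19:2236574-2236823, plus strand: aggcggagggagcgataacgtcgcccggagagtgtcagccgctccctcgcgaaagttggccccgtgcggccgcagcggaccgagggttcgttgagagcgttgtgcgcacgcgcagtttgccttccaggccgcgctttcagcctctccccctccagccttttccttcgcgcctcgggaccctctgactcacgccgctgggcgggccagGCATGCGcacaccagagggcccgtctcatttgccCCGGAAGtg
No match lay in the windows of SRSF6 or of the upstream SRSF11 start. The downstream SRSF11 start held 1 match to TATAAA on the opposite strand, and SF3A2 held 1 match each to CCGGAAG and GCATGCG. Of the 48 genes 43 had an entry in the RefSeq promoter table. CCGGAAG was present for 12 of these 43 genes (27.9%), against 10.2% of all 27305 genes of that table. CACGTG was present for 7 (16.3%, against 7.73% of all genes), TATAAA for 6 (14.0%, against 13.0%) and GCATGCG for 5 (11.6%, against 4.16%). A gene counted if any of its annotated starts held a match. The 27305 genes were not limited to measured or abundant ones. These shares were therefore not matched for the number of starts or for read level. A match is a run of letters and not a measured binding site.

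SRSF6 and SRSF11, both SR genes, were lower in sgMETTL13 cells, and no other gene of the family passed the test. Of the 48 genes the authors' deposited table called 0 higher and 2 lower in sgMETTL13 cells at an adjusted p under 0.05, that is 4.17% of the family, where 3.80% of all genes were called (2.73% higher and 1.08% lower). Most of the family is abundant, and 46 of its genes lay at or above the median of 205 mean estimated reads; among all 8309 genes above that line 7.04% were called, 5.21% higher and 1.83% lower. The family's share above that line was 4.35%, from 0 higher and 2 lower of 46. The 2 sets were not matched for depth. Median reads were 2502 for the 46 genes and 743 for all abundant genes, with median implied standard errors of 0.0666 and 0.0892. At an unadjusted p under 0.05 the same 46 genes gave 5 higher and 7 lower, or 26.1%, where 13.7% of abundant genes were higher and 7.27% lower. The median deposited log2 fold change of the 46 genes was -0.0021 (quartiles -0.072 and 0.054), against 0.011 for all abundant genes (quartiles -0.079 and 0.10). The p-values are the authors' and measure the spread between 3 libraries a group, which no label ties to separate cultures; each standard error given here is implied by the deposited fold change and its two-sided p under a normal test.

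The guided gene behaved as labelled. METTL13 averaged 5.63 TPM in sgMETTL13 cells and 39.9 TPM in sgControl cells, which is -2.78 as a log2 value in the authors' deposited table (adjusted p 2.5e-127). The average estimated reads summed to 15247500 per sgMETTL13 library and 15240866 per sgControl library; values of single libraries are not analysed here. All 6 epithelial markers were present at 49.6 to 2078 TPM in sgMETTL13 cells and 53.7 to 2107 TPM in sgControl cells. The highest of the measured acinar, islet, leukocyte and endothelial markers reached 1.84 TPM in sgMETTL13 cells and 1.68 TPM in sgControl cells, and 5 fibroblast markers summed to 17.3 TPM in sgMETTL13 cells and 17.15 TPM in sgControl cells. No marker was called. In bulk RNA, fewer cells of a type and less RNA per cell cannot be told apart.

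**Figure D1:**
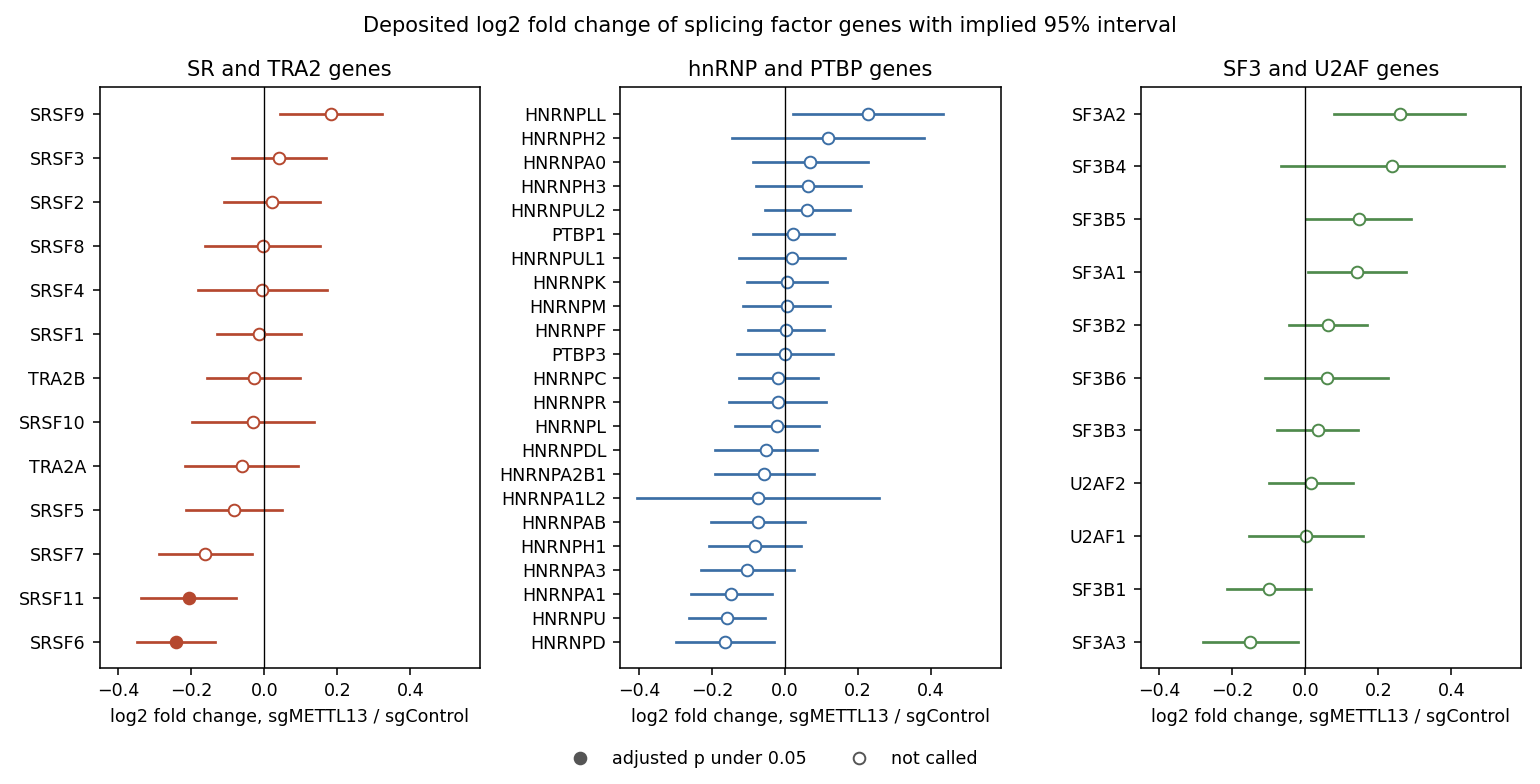
Deposited log2 fold change of sgMETTL13 over sgControl (x axis) for each splicing factor gene (y axis), by group; lines are implied 95% intervals, filled points passed an adjusted p of 0.05. SRSF6 and SRSF11 are the 2 filled points, at -0.24 and -0.21; HNRNPCL3, which is nearly unexpressed, is left out.

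SR protein genes held both calls, 2 of the 13 SR and TRA2 genes (15.4%), where 7.04% of all abundant genes were called. SRSF6 (SRp55), which binds exonic enhancers and regulates alternative exons, averaged 91.4 TPM in sgMETTL13 cells and 113.9 TPM in sgControl cells. In estimated reads the averages were 2764 in sgMETTL13 cells and 3391 in sgControl cells. SRSF6 fell by 0.24 on the log2 scale, to 0.845 of its control level, with an implied standard error of 0.0547, an implied 95% interval from -0.35 to -0.14 and an adjusted p of 0.00068 in the authors' deposited table. Its locus is chromosome 20, 43457928 to 43464247, plus strand (GRCh38, GENCODE 29), and its exons share no base with another annotated gene. SRSF11 (p54), an SR protein that associates with U2AF2, averaged 53.9 TPM in sgMETTL13 cells and 65.2 TPM in sgControl cells. SRSF11 fell by 0.21 on the log2 scale, with an implied standard error of 0.0665, an implied 95% interval from -0.34 to -0.077 and an adjusted p of 0.0491 in the authors' deposited table. No gene with a larger p was called, so SRSF11 sits at the edge of the threshold. Its locus is chromosome 1, 70205682 to 70253052, plus strand.

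The next SR genes by p lay on opposite sides of 0. SRSF9 (SRp30c), one of the smaller SR proteins, averaged 259.9 TPM in sgMETTL13 cells and 240.7 TPM in sgControl cells. In the authors' deposited table this was 0.18 as a log2 fold change (95% interval implied by its p, from 0.042 to 0.32, adjusted p 0.161). SRSF7 (9G8), which carries a zinc knuckle and also serves mRNA export, averaged 184.5 TPM in sgMETTL13 cells and 218.4 TPM in sgControl cells. It had -0.16 as a log2 value in the authors' deposited table (95% interval implied by its p, from -0.29 to -0.035, adjusted p 0.177). Neither passed the test. The exons of SRSF9 share 1729 bases with GATC on the opposite strand; GATC stood at 0.13 as a log2 value in the authors' deposited table, and the sources used here do not say whether reads were counted by strand. Exonic overlaps with a measured gene on the opposite strand also touch SRSF2 (1106 bases, MFSD11), HNRNPA2B1 (368 bases, CBX3), SF3A1 (218 bases, CCDC157), HNRNPAB (196 bases, PHYKPL) and HNRNPH3 (115 bases, RUFY2). The part of such overlaps in the values was not tested.

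The best known SR genes had fold changes near 0. SRSF1 (ASF/SF2), the founding member and a proto-oncogene, averaged 62.5 TPM in sgMETTL13 cells and 66.6 TPM in sgControl cells, and the authors' deposited table gives -0.015 on the log2 scale. SRSF2 (SC35), the most abundant SR transcript here, averaged 434.5 TPM in sgMETTL13 cells and 446.3 TPM in sgControl cells, and the authors' deposited table gives 0.021 on the log2 scale. SRSF3, which recruits the mRNA export receptor, averaged 98.0 TPM in sgMETTL13 cells and 100.2 TPM in sgControl cells, and the authors' deposited table gives 0.040 on the log2 scale. The implied 95% intervals of these 3 genes lay within 0.3 of 0 on either side. SRSF4 (SRp75) averaged 42.1 TPM in sgMETTL13 cells and 44.5 TPM in sgControl cells (log2 fold change -0.0059 in the authors' deposited table). SRSF5 (SRp40) averaged 138.8 TPM in sgMETTL13 cells and 157.0 TPM in sgControl cells (log2 fold change -0.083 in the authors' deposited table). SRSF10, which represses splicing once dephosphorylated, averaged 28.4 TPM in sgMETTL13 cells and 29.6 TPM in sgControl cells (log2 fold change -0.031 in the authors' deposited table). SRSF8, an intronless relative of SRSF2, averaged 23.8 TPM in sgMETTL13 cells and 25.2 TPM in sgControl cells (log2 fold change -0.0050 in the authors' deposited table). The average reads of SRSF8 and SRSF10 are not whole multiples of 1 read over 3 libraries, so reads were divided between them and other genes and their values are less certain. TRA2A and TRA2B, which bind GAA-rich exonic enhancers together with SR proteins, did not pass the test either. TRA2A averaged 57.2 TPM in sgMETTL13 cells and 62.7 TPM in sgControl cells (log2 fold change -0.063 in the authors' deposited table). TRA2B averaged 109.6 TPM in sgMETTL13 cells and 118.6 TPM in sgControl cells (log2 fold change -0.029 in the authors' deposited table). Of the 13 SR and TRA2 genes 3 had a deposited log2 fold change above 0 and 10 below, with a median of -0.029. On the ratio of average reads and on the TPM ratio 1 lay above 0 and 12 below. Among all abundant genes 53.3% lay above 0 as deposited, 37.3% on the ratio of average reads and 31.9% on the TPM ratio.

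None of the 24 hnRNP and PTBP genes was called in the authors' deposited table, where 7.04% of all abundant genes were. Of the 24 genes 4 had an unadjusted p under 0.05, and 11 lay above 0 and 13 below. At that unadjusted p the share was 18.2% of the group's 22 abundant genes, against 21.0% of all abundant genes. On the TPM ratio 2 of the 24 lay above 0 and 22 below, where 31.9% of all abundant genes lay above 0. HNRNPU (SAF-A), which also binds chromatin and the nuclear scaffold, came closest. It averaged 125.6 TPM in sgMETTL13 cells and 147.5 TPM in sgControl cells. The log2 fold change in the authors' deposited table was -0.16 (implied standard error 0.0532, implied 95% interval from -0.26 to -0.054, adjusted p 0.0664). With p-values adjusted over abundant genes alone the adjusted p was 0.0360. Its exons share 3502 bases with COX20 on the opposite strand, which had 361.0 average reads in sgMETTL13 cells and 395.7 in sgControl cells. HNRNPA1, a silencer-binding hnRNP and the most abundant transcript of the family, averaged 704.7 TPM in sgMETTL13 cells and 817.0 TPM in sgControl cells. In the authors' deposited table this was -0.15 as a log2 fold change (95% interval implied by its p, from -0.26 to -0.036, adjusted p 0.145). Part of its reads were divided with other genes, among which near-identical copies are known. HNRNPD (AUF1), which binds AU-rich elements and promotes mRNA decay, averaged 137.5 TPM in sgMETTL13 cells and 162.2 TPM in sgControl cells. It had -0.16 as a log2 value in the authors' deposited table (95% interval implied by its p, from -0.30 to -0.029, adjusted p 0.211). HNRNPLL, known for regulating CD45 exons in T cells, lay on the other side of 0. It averaged 25.2 TPM in sgMETTL13 cells and 22.1 TPM in sgControl cells, and the authors' deposited table gives 0.23 on the log2 scale (95% interval implied by its p, from 0.024 to 0.43, adjusted p 0.294).

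By the deposited fold change, the other abundant hnRNPs differed by less than 0.12 on the log2 scale. On the log2 TPM ratio HNRNPA3 (-0.176), HNRNPAB (-0.147), HNRNPH1 (-0.143) and HNRNPDL (-0.125) differed by more. PTBP1, which represses exons through pyrimidine tracts, averaged 545.6 TPM in sgMETTL13 cells and 565.3 TPM in sgControl cells (log2 fold change 0.024 in the authors' deposited table). Its paralog PTBP3 averaged 61.4 TPM in sgMETTL13 cells and 63.8 TPM in sgControl cells (log2 fold change 0.00075 in the authors' deposited table). HNRNPK, which binds C-rich runs, averaged 401.5 TPM in sgMETTL13 cells and 420.8 TPM in sgControl cells (log2 fold change 0.0057 in the authors' deposited table). HNRNPC, which binds U-rich runs and packages nascent transcripts, averaged 393.1 TPM in sgMETTL13 cells and 417.5 TPM in sgControl cells (log2 fold change -0.018 in the authors' deposited table). HNRNPA2B1, the close relative of HNRNPA1, averaged 356.4 TPM in sgMETTL13 cells and 384.3 TPM in sgControl cells (log2 fold change -0.056 in the authors' deposited table). The other A-type genes lay on both sides of 0. HNRNPA3 averaged 60.1 TPM in sgMETTL13 cells and 67.9 TPM in sgControl cells (log2 fold change -0.10 in the authors' deposited table), and HNRNPA0 averaged 76.6 TPM in sgMETTL13 cells and 76.9 TPM in sgControl cells (log2 fold change 0.070 in the authors' deposited table). HNRNPAB averaged 299.2 TPM in sgMETTL13 cells and 331.3 TPM in sgControl cells (log2 fold change -0.075 in the authors' deposited table), and HNRNPDL, a relative of HNRNPD, averaged 54.8 TPM in sgMETTL13 cells and 59.7 TPM in sgControl cells (log2 fold change -0.052 in the authors' deposited table).

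The G-run binding genes of the F and H type were not called. HNRNPF averaged 234.3 TPM in sgMETTL13 cells and 246.2 TPM in sgControl cells (log2 fold change 0.0030 in the authors' deposited table). HNRNPH1 averaged 223.9 TPM in sgMETTL13 cells and 247.3 TPM in sgControl cells (log2 fold change -0.082 in the authors' deposited table). Their less abundant relatives lay above 0 as deposited, and HNRNPH3 lay below 0 on the TPM ratio. HNRNPH2 averaged 23.0 TPM in sgMETTL13 cells and 22.3 TPM in sgControl cells (log2 fold change 0.12 in the authors' deposited table), with reads divided with the readthrough gene RPL36A-HNRNPH2, and HNRNPH3 averaged 71.0 TPM in sgMETTL13 cells and 71.5 TPM in sgControl cells (log2 fold change 0.065 in the authors' deposited table). HNRNPL, which binds CA repeats, averaged 172.6 TPM in sgMETTL13 cells and 183.1 TPM in sgControl cells (log2 fold change -0.022 in the authors' deposited table). HNRNPM averaged 169.6 TPM in sgMETTL13 cells and 177.3 TPM in sgControl cells (log2 fold change 0.0048 in the authors' deposited table), and HNRNPR averaged 98.4 TPM in sgMETTL13 cells and 104.8 TPM in sgControl cells (log2 fold change -0.020 in the authors' deposited table). The 2 relatives of HNRNPU lay above 0 as deposited and below 0 on the TPM ratio. HNRNPUL1 averaged 237.2 TPM in sgMETTL13 cells and 247.6 TPM in sgControl cells (log2 fold change 0.018 in the authors' deposited table), and HNRNPUL2 averaged 81.5 TPM in sgMETTL13 cells and 82.2 TPM in sgControl cells (log2 fold change 0.061 in the authors' deposited table). HNRNPUL1 overlaps TGFB1 on the opposite strand by 215 exonic bases, and TGFB1 was called higher (log2 fold change 0.38 in the authors' deposited table). The last 2 genes fell below the median read count. HNRNPA1L2 averaged 7.46 TPM in sgMETTL13 cells and 8.32 TPM in sgControl cells (log2 fold change -0.074 in the authors' deposited table), with reads divided with other genes. HNRNPCL3 was listed at 0 TPM in sgMETTL13 cells and averaged 0.0467 TPM in sgControl cells, or 0.333 reads a library.

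None of the 11 SF3 and U2AF genes was called in the authors' deposited table, where 7.04% of all abundant genes were. As deposited, 9 of 11 lay above 0, with a median log2 fold change of 0.058, but the direction depends on the scaling: 6 of 11 lay above 0 on the ratio of average reads and 4 of 11 on the TPM ratio. Of all abundant genes 53.3% lay above 0 as deposited, 37.3% on the ratio of average reads and 31.9% on the TPM ratio. The 3 subunits of SF3a, the part of the U2 snRNP that is built from SF3A1, SF3A2 and SF3A3, lay on both sides of 0. SF3A2 averaged 153.8 TPM in sgMETTL13 cells and 135.4 TPM in sgControl cells. The log2 fold change in the authors' deposited table was 0.26 (implied standard error 0.0919, implied 95% interval from 0.079 to 0.44, adjusted p 0.0940), the largest fold change above 0 in the family and short of the threshold. SF3A1 averaged 130.8 TPM in sgMETTL13 cells and 125.1 TPM in sgControl cells. In the authors' deposited table this was 0.14 as a log2 fold change (95% interval implied by its p, from 0.0061 to 0.28, adjusted p 0.360). SF3A3 averaged 65.1 TPM in sgMETTL13 cells and 76.0 TPM in sgControl cells. It had -0.15 as a log2 value in the authors' deposited table (95% interval implied by its p, from -0.28 to -0.021, adjusted p 0.255). The ratio of SF3A2 to SF3A3 was 2.36 in sgMETTL13 cells and 1.78 in sgControl cells, in TPM; the difference between subunits was not tested, since no value per library was used. SF3A2 shares 398 exonic bases with PLEKHJ1 on the opposite strand, which the authors' deposited table puts at 0.13 on the log2 scale.

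Of the SF3b subunits, SF3B1, which clamps the branch site and is mutated in several cancers, averaged 100.6 TPM in sgMETTL13 cells and 116.0 TPM in sgControl cells (log2 fold change -0.10 in the authors' deposited table). SF3B4, which contacts the pre-mRNA beside the branch site, averaged 306.1 TPM in sgMETTL13 cells and 273.7 TPM in sgControl cells. It stood at 0.24 as a log2 value in the authors' deposited table, with an implied standard error of 0.156 and an adjusted p of 0.628. That error is 2.57 times the median of the 201 genes nearest in read count, the largest such ratio in the family. SF3B5, a small subunit, averaged 255.1 TPM in sgMETTL13 cells and 242.5 TPM in sgControl cells (log2 fold change 0.15 in the authors' deposited table, 95% interval implied by its p from 0.0030 to 0.29, adjusted p 0.387). SF3B6, also called p14, averaged 158.4 TPM in sgMETTL13 cells and 159.9 TPM in sgControl cells (log2 fold change 0.058 in the authors' deposited table). SF3B2 averaged 350.2 TPM in sgMETTL13 cells and 353.0 TPM in sgControl cells (log2 fold change 0.061 in the authors' deposited table), and SF3B3, a scaffold subunit, 47.6 TPM in sgMETTL13 cells and 49.0 TPM in sgControl cells (log2 fold change 0.034 in the authors' deposited table). U2AF2 averaged 230.8 TPM in sgMETTL13 cells and 240.5 TPM in sgControl cells (log2 fold change 0.014 in the authors' deposited table). U2AF1 averaged 134.9 TPM in sgMETTL13 cells and 141.3 TPM in sgControl cells (log2 fold change 0.0018 in the authors' deposited table). The 2 subunits of the U2AF dimer had a TPM ratio of 1.71 in sgMETTL13 cells and 1.70 in sgControl cells. Reads of U2AF1 were divided with other genes; the copy U2AF1L5 was given 13.8 average reads in sgMETTL13 cells and 2.62 in sgControl cells. In all, 8 of the 48 genes had such divided reads (HNRNPA1, HNRNPA1L2, HNRNPH2, HNRNPUL1, SF3B3, SRSF8, SRSF10 and U2AF1), as did 20.5% of all genes.

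**Figure D2:**
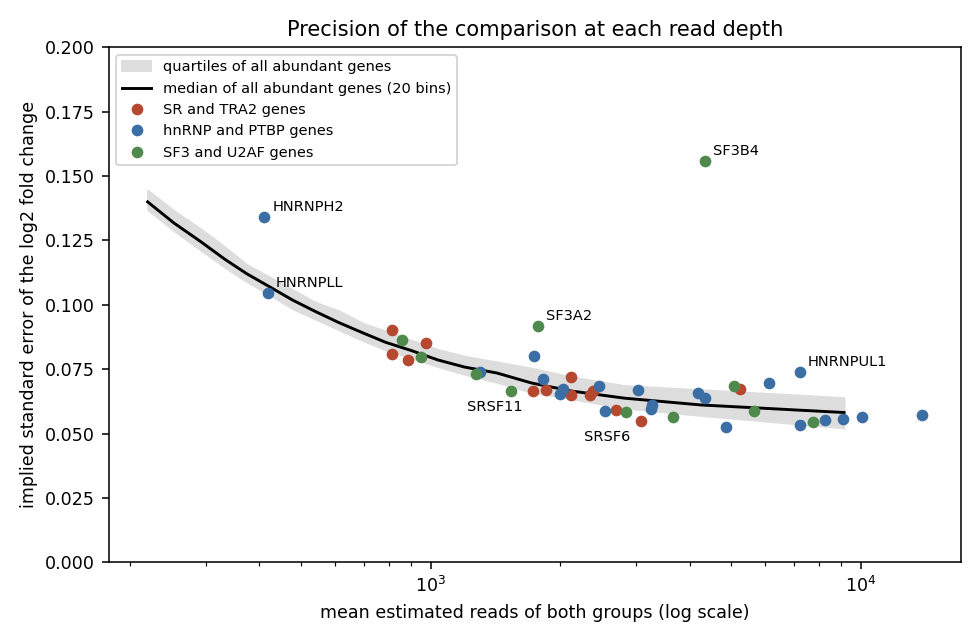
Implied standard error of the log2 fold change (y axis) against the mean estimated reads of both groups (x axis, log scale) for the 46 abundant splicing factor genes, over the median and quartiles of all abundant genes in 20 bins. SF3B4 stands apart at 0.156, and SRSF6 lies at 0.0547.

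The implied errors set the size of change that could be called. At the implied standard errors of the 46 abundant genes, a log2 change of 0.21 in the median gene (0.16 to 0.48 over the genes) would have been needed to reach the largest p that was called. The implied 95% interval lay between -0.3 and 0.3 for 39 of the 46 genes and between -0.5 and 0.5 for 45. A change under 0.16 would not have been called in any of them.

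On the TPM scale the family was a smaller part of the transcriptome in sgMETTL13 cells. The 48 genes summed to 8079 TPM in sgMETTL13 cells and 8528 TPM in sgControl cells, or 0.808% of all TPM in sgMETTL13 cells and 0.853% in sgControl cells. The hnRNP and PTBP genes, which held 57.8% of the family's TPM in sgControl cells, made up most of that difference. They summed to 4561 TPM in sgMETTL13 cells and 4927 TPM in sgControl cells. Of this HNRNPA1 alone, which was not called, held 704.7 TPM in sgMETTL13 cells and 817.0 TPM in sgControl cells. SR and TRA2 genes summed to 1585 TPM in sgMETTL13 cells and 1689 TPM in sgControl cells, whereas SF3 and U2AF genes summed to 1934 TPM in sgMETTL13 cells and 1912 TPM in sgControl cells. Average TPM was lower in sgMETTL13 cells for 41 of the 48 genes (85.4%), but also for 63.8% of all genes and 68.1% of abundant genes. The deposited fold changes are scaled differently from the TPM ratios: the median abundant gene had a log2 TPM ratio of -0.061 and a deposited log2 fold change of 0.011. The median log2 TPM ratio of the family's 46 abundant genes was -0.069. In 16 of the 48 genes the TPM ratio and the deposited fold change had opposite signs. Deposited fold changes of abundant genes also equal the log2 ratio of average reads plus 0.0516 (SD 0.00072 over genes). On the ratio without that shift 384 of all 16617 genes were called lower and 294 higher. The share among abundant genes alone was not computed, so the family's calls on this ratio have no matched background. Leaving out the shift lowers abundant genes in general. Above 0 lay 37.3% of them on this ratio, against 53.3% as deposited. For the family the shares were 25.5% and 47.9%. Of the family's 48 genes, most of them abundant, 7 were called lower and 0 higher (SRSF6, SRSF11, SRSF7, HNRNPU, HNRNPA1, HNRNPD and SF3A3). These are the same 7 genes that had a lower level at an unadjusted p under 0.05 as deposited.

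**Figure D3:**
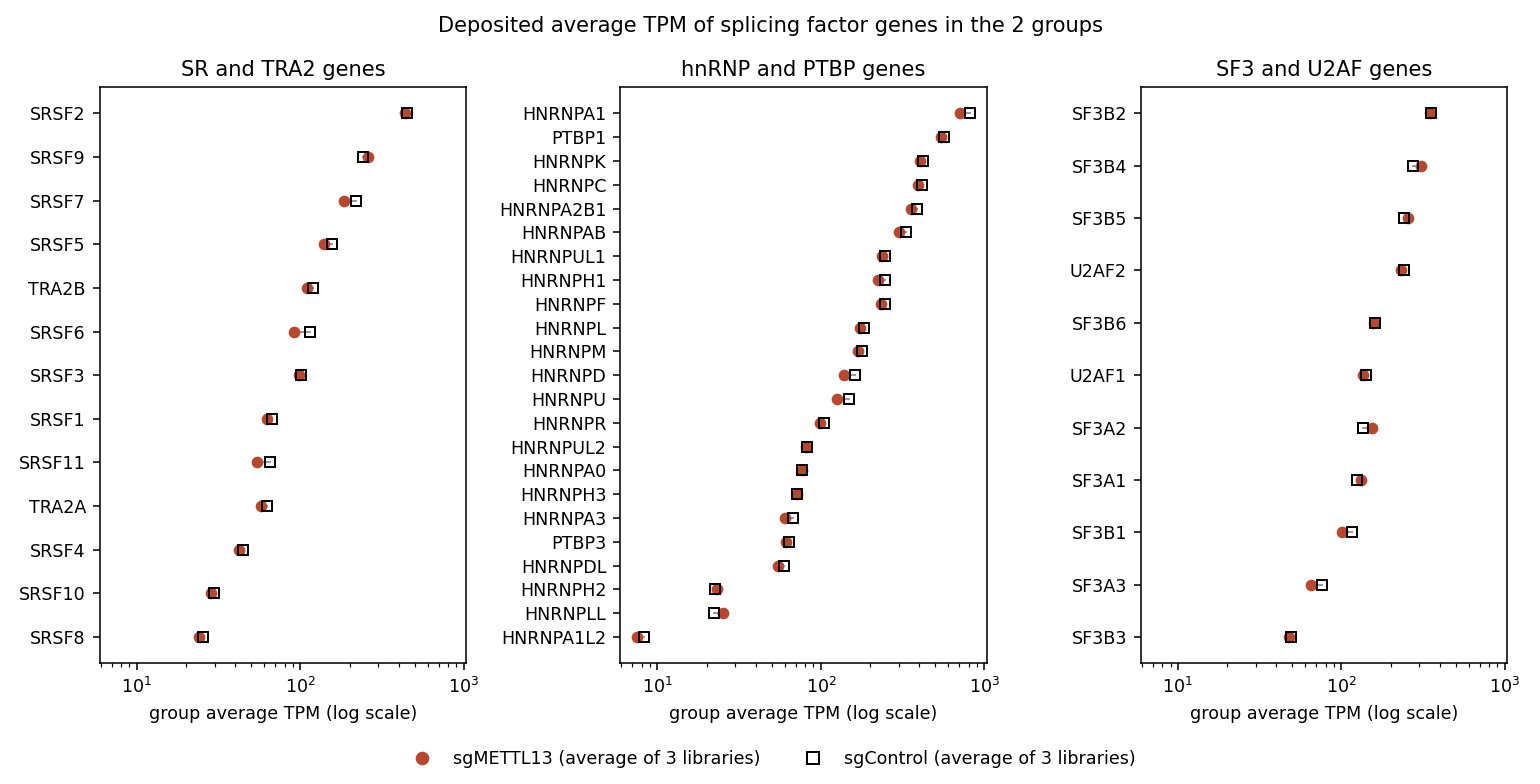
Authors' average TPM (x axis, log scale) of each splicing factor gene in sgMETTL13 cells (filled circles) and sgControl cells (open squares), ordered by level; each point averages 3 libraries, so no error bar can be drawn. Levels ran up to 704.7 TPM in sgMETTL13 cells and 817.0 TPM in sgControl cells, both in HNRNPA1, and most pairs of points nearly coincide.

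The order of levels was almost the same in both groups. HNRNPA1, PTBP1, SRSF2, HNRNPK, HNRNPC, HNRNPA2B1 and SF3B2 held the first 7 places of the family in sgMETTL13 cells and in sgControl cells, in that order. SF3B4 stood in place 8 in sgMETTL13 cells and 9 in sgControl cells. SRSF9 stood in place 10 in sgMETTL13 cells and 14 in sgControl cells. SRSF6 stood in place 30 in sgMETTL13 cells and 28 in sgControl cells. Neighbouring places were not tested against each other.

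Fold change and the GC content of the transcript were set side by side as a description. The family's abundant genes have a median GC content of 45.9%, against 50.1% for all abundant genes. Across the 46 genes Pearson's r between GC content and log2 fold change was 0.40 and Spearman's rho 0.38, against 0.33 and 0.37 across 8289 abundant genes with an annotated transcript; genes share the libraries and are not independent replicates. Within the family r was 0.66 over 13 SR and TRA2 genes and 0.61 over 11 SF3 and U2AF genes and -0.098 over 22 hnRNP and PTBP genes; the difference between these values was not tested. Of the 15 genes richest in GC (50.9% to 66.6%) 12 lay above 0. Their median log2 fold change was 0.024, against 0.056 for all 3792 abundant genes in that range of GC content. The count above 0 did not fall steadily with GC content. It was 4 of the 16 genes in the middle (43.3% to 50.1%) and 7 of the 15 poorest (36.7% to 42.5%). The shares of all abundant genes above 0 in these ranges were not computed, so the counts have no background. The medians were -0.025 in the middle, against -0.018 for all abundant genes in that range, and -0.031 in the poorest, against -0.048. The 7 genes with a lower level at an unadjusted p under 0.05 had a GC content of 40.7% to 49.6%, and 4 of the 5 with a higher level lay between 50.9% and 66.6%, the exception being HNRNPLL at 37.8%. After a smooth GC and length trend was taken out, SRSF6 kept its call (log2 fold change -0.23, adjusted p 0.0030) and SRSF11 lost it (-0.17, adjusted p 0.181). Of the abundant genes of the family with an unadjusted p under 0.05 or a log2 fold change of 0.1 or more in size, 4 moved over 1.5 times nearer 0. These were SF3B5 (to 0.041), HNRNPA3 (to -0.040), SF3A2, the richest in GC (to 0.13), and HNRNPU (to -0.097). The part of GC content in these differences was not tested beyond that removal.

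**Figure D4:**
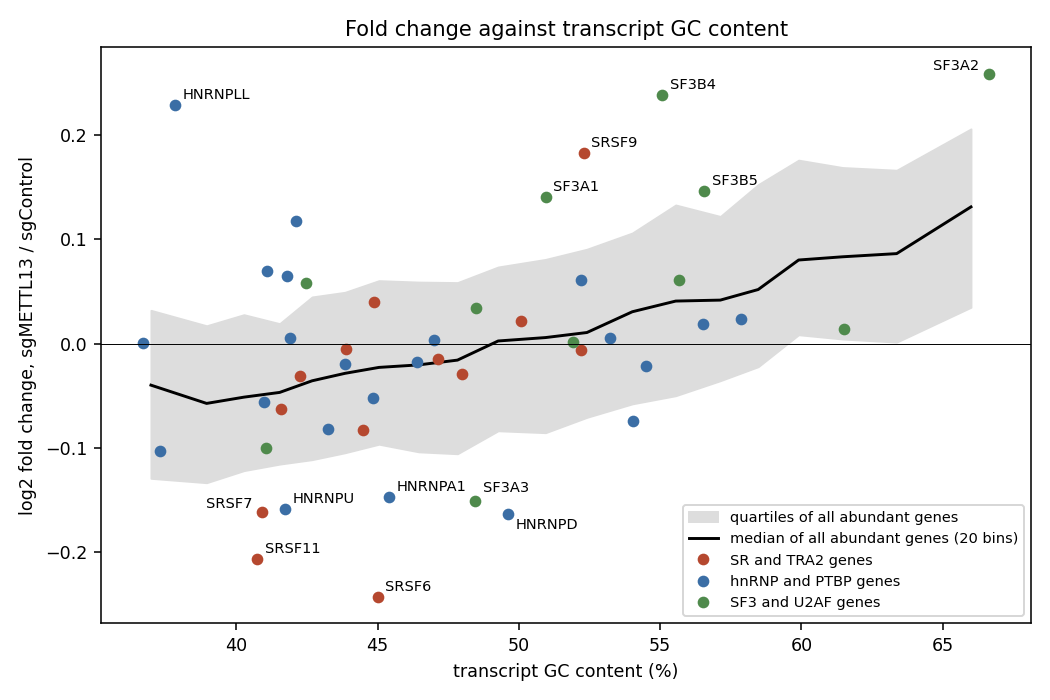
Deposited log2 fold change of sgMETTL13 over sgControl (y axis) against transcript GC content (x axis, %) for the 46 abundant splicing factor genes, coloured by group, over the median and quartiles of all abundant genes in 20 bins of GC content. SRSF6 and SRSF11 lie below the grey band, and HNRNPLL lies above it at low GC content.

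Few genes were called in the other splicing lists. In 11 lists with 179 genes the authors' deposited table called 2 genes higher and 1 lower. The lists were chosen from knowledge of the spliceosome, with earlier results of these data known. Of the 166 genes that are abundant 1.81% were called, where 7.04% of all abundant genes were. Depth was not matched, with median reads of 1276 for the 166 genes and 743 for all abundant genes. BUD31, a subunit of the PRP19-related complexes that act in the catalytic spliceosome, averaged 362.9 TPM in sgMETTL13 cells and 319.0 TPM in sgControl cells; it rose by 0.26 on the log2 scale (the authors' deposited table, adjusted p 0.0030). PCBP1, a C-rich binding protein also known as hnRNP E1, averaged 332.2 TPM in sgMETTL13 cells and 297.1 TPM in sgControl cells; it rose by 0.24 on the log2 scale (the authors' deposited table, adjusted p 0.0039). Once the GC and length trend was taken out, neither stayed past the threshold (adjusted p 0.0701 for BUD31 and 0.104 for PCBP1). Medians of the abundant genes lay between -0.027, for the hnRNPs known by other symbols, and 0.030, for the Sm and LSm core and the exon junction and decay list.

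Where a list held no call, its gene with the smallest p is given. PPP1CA, a phosphatase that acts on SR proteins, had 0.14 on the log2 scale (adjusted p 0.103 in the authors' deposited table). SRRM1, an SR-related coactivator, had -0.20 (adjusted p 0.182 in the authors' deposited table). SNRPB, a core Sm protein, had 0.18 (adjusted p 0.129 in the authors' deposited table), and SNRPC of the U1 snRNP had 0.19 (adjusted p 0.107 in the authors' deposited table). DDX42, a helicase that binds SF3B1, had -0.18 and came closest to the threshold (adjusted p 0.0551 in the authors' deposited table). PRPF6 of the tri-snRNP had -0.098 (adjusted p 0.582 in the authors' deposited table), CWC27 of the catalytic step had -0.17 (adjusted p 0.650 in the authors' deposited table) and the regulator RBM25 had -0.17 (adjusted p 0.120 in the authors' deposited table). None of these 8 genes passed the test. With the same trend taken out, PPP1CA moved to 0.043, SNRPB to 0.085, SNRPC to 0.12 and RBM25 to -0.099, each over 1.5 times nearer 0, and PRPF6 moved away from 0, to -0.15.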

How the data were processed

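RNA from T3M4 cells was sequenced in 3 sgMETTL13 and 3 sgControl libraries, grouped by their titles. The submitters' processing notes name DESeq2, RSEM 1.2.12, Bowtie2 2.2.5 and HISAT2 2.0.4 with the builds hg38 and GRCh38.p12, without their roles or order. Per the file headers, the authors' deposited table holds group averages of TPM, FPKM (not used) and estimated read counts (expected counts; 20.5% of genes have averages that are not whole multiples of 1 read over 3 libraries, tolerance 0.005), with a log2 ratio, p-value and q-value. TPM as deposited summed to 999463 in sgMETTL13 and 999500 in sgControl. The deposited q-value, called the adjusted p, lies within 1.20% of a Benjamini-Hochberg adjustment. No count model could be fitted to averages, so the deposited comparison across all genes is the result, with calls at 0.05. Depths of single libraries are unknown.

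The implied standard error is what a two-sided normal test needs to turn the deposited log2 value into its p. GC content and length are medians over RefSeq-matched GENCODE 29 transcripts, by Entrez ID (16211 genes, 97.6%). Trends were natural splines with 4 degrees of freedom each, with each gene weighted by the inverse square of its implied standard error. The step was tested on simulated data. Members and lists were chosen with earlier results of these data known. Named are METTL13, every member by its values, full statistics for calls and the 4 smallest p of each group, and from each list its calls or its smallest p; genes that overlap a member or share its reads (such as GATC, COX20 and U2AF1L5) were named after their values were seen. Protein features were planned and not analysed here. The result of 1 called gene of the other splicing lists is not reported here. Software was matplotlib 3.10.9, patsy 1.0.2, scipy 1.17.1, pandas 2.3.3 and numpy 2.4.6 under Python 3.11.15.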

Additional observations from a re-analysis of the deposited data

How the results depend on the processing

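Fold changes are given as sgMETTL13 over sgControl. No paired analysis was possible because the deposited table holds 1 average per group, which carries no replicate number; for the same reason no library could be left out and no count model could be refitted. METTL13 kept its direction and its call in every setting run with a test; its log2 TPM ratio with a pseudocount of 1 was -2.63. SRSF6 kept its call in every setting except Bonferroni adjustment (adjusted p 0.145). At a threshold of 0.01, 1 gene of the family, 104 of all genes and 0 of the other splicing lists were called lower. At 0.1, 1 gene of the family was called higher (SF3A2); 269 of all genes were lower, and the other splicing lists had 4 higher and 2 lower. Under Bonferroni 0 genes of the family were lower, 136 of all genes were higher and 44 lower, and the other lists had 0 either way. With adjustment over abundant genes alone the other lists had 2 lower. On the unscaled ratio of average reads the family had 7 lower, all genes 294 higher and 384 lower, and the other lists 7 lower; this follows from the shift of 0.0516 that the ratio leaves out. With the GC content and length trend removed the family had 1 lower, all genes 255 higher, and the other lists 0 higher and 0 lower.

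Some uncalled genes near 0 changed sign. On the ratio of average reads these were SF3B3 (-0.018), U2AF1 (-0.049), U2AF2 (-0.037), SRSF2 (-0.030), SRSF3 (-0.011), HNRNPF (-0.049), HNRNPK (-0.046), HNRNPM (-0.047), HNRNPUL1 (-0.033), PTBP1 (-0.028) and PTBP3 (-0.050). With the trend removed they were U2AF1 (-0.061), U2AF2 (-0.078), SRSF2 (-0.0041), SRSF8 (0.029), HNRNPM (-0.031), HNRNPUL1 (-0.033) and PTBP1 (-0.033). Centring on the median of all genes turned PTBP3 (-0.00067). The cause was not tested for the trend. Recomputed Benjamini-Hochberg adjustment and restriction to genes with whole reads changed no call of the family that they could test.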
